A study of Mus musculus with 4 samples.

Results

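The genes described here encode the synaptonemal complex and the meiosis-specific cohesin, the protein scaffold that holds homologous chromosomes together in meiotic prophase. They were taken as the rows of the deposited count table whose gene symbol was Sycp1, Sycp2, Sycp3, Syce1, Syce2, Tex12, Rec8, Rad21l, Stag3 or Smc1b. All 10 symbols were found, each in 1 row, among 25265 genes, and all 10 passed the filter on low counts. RNA of whole testes from C57BL/6 mice at postnatal day 56 was depleted of ribosomal RNA and sequenced in 4 libraries, of which 2 carry the label control and 2 the label Ythdf2-vKO. YTHDF2 is a reader protein that docks on N6-methyladenosine marks in messenger RNA and brings in a deadenylase, and the series title calls the mutation germ cell-specific. The labels used here give neither the segment deleted, nor what drives the deletion, nor the alleles of the controls, and they do not tie libraries to animals, so p-values measure the spread between libraries, which may be technical.

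Meiotic chromosomes are organised along a protein axis built on cohesin rings. In germ cells some subunits of the ring are replaced: SMC1B stands in for SMC1A, REC8 or RAD21L for the kleisin RAD21 that closes the ring, and STAG3 for STAG1 or STAG2. SYCP2 and SYCP3 coat this axis as the lateral element, SYCP1 spans the gap between homologues as the transverse filament, and SYCE1, SYCE2 and TEX12 belong to the central element that locks facing SYCP1 molecules together. In the testis these genes are known as markers of spermatocytes, and male mice lacking them are typically infertile.

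Promoter windows of the 10 genes were read from RefSeq on GRCm38.p6, from 250 bases before to 50 after each annotated start, and all 10 genes matched, with 11 windows because Syce2 has 2 overlapping ones. The letters of 4 binding motifs of regulators known from germ cells were searched on both strands. TCCCGC, a core of E2F sites, was found in 8 of the 11 windows and in 19.98% of all 32851 windows. CACGTG, the E-box that MAX dimers bind, was found in 5 of 11 windows and in 7.15% of all windows. CNCCTCAG, the letters reported for STRA8, were found in 3 of 11 and in 7.94% of all, and TAACNG, a core of MYB sites, in 6 of 11 and in 23.3% of all. The overlapping Syce2 windows hold the same MYB match, and counted by gene the letters were found in 7 of 10 for E2F, 5 for the E-box, 3 for STRA8 and 5 for MYB. In Syce2 a STRA8 match and an E2F match overlap, and no other matches in the 11 windows do. The motifs were chosen after the expression values had been seen, and a match is not a bound site. The windows of the genes had a median GC content of 60.0%, against 52.7% for all windows. Rad21l had none of the 4 motifs, and its window was the poorest in GC, at 29.0%. The annotated exons of Rad21l add up to 1659 bases, and whether transcription begins at its annotated start was not tested. That window may therefore not be its promoter. Stretches of 4 promoters that hold E2F or E-box letters are shown to make the shared letters visible, with every motif match in capitals, each ending upstream of both the RefSeq and the GENCODE start.
Sycp1 (chr3:102936101-102936270, minus strand): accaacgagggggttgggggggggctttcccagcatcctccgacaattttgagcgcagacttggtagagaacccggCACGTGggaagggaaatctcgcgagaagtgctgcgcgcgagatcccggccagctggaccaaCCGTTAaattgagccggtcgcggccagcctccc
Sycp3 (chr10:88459417-88459568, plus strand): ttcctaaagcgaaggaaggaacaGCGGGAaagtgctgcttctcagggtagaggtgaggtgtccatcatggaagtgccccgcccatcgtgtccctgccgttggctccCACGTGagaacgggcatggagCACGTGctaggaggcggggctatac
Tex12 (chr9:50561326-50561438, minus strand): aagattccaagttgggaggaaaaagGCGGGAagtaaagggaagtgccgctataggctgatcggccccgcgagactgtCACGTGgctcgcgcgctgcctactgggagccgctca
Smc1b (chr15:85131965-85132127, minus strand): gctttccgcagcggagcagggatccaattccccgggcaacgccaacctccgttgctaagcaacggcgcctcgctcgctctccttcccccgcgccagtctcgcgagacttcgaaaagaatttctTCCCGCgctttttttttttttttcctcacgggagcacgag
Sycp3 carried E-box letters beginning 64 and 43 bases before its RefSeq start, and Sycp1 and Tex12 carried them 94 and 93 bases before theirs. The capitals at the 3′ end of the Sycp1 stretch are MYB letters on the opposite strand, and those of Smc1b are E2F letters 47 bases before its start.

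Library totals lay between 24862518 and 29561182 counts. The transcript of the targeted gene, Ythdf2, was no lower in the libraries labelled Ythdf2-vKO: it had 51.0 and 53.5 CPM (counts divided by each library's TMM-adjusted size) in the controls against 66.3 and 67.0 CPM in the other group, a log2 fold change of 0.35 (SE 0.13, edgeR adjusted p 0.238). Counts over a whole gene do not check an unstated deletion, so groups are named by their labels. Spermatocyte markers of the testis were present. Summed levels of 8 genes of early prophase spermatocytes were 310 and 316 CPM in the controls against 290 and 253 CPM in the libraries labelled Ythdf2-vKO. Those of 8 genes of late prophase spermatocytes were 4563 and 3923 CPM in the controls against 4309 and 4055 CPM. A gene was called where edgeR's quasi-likelihood test gave a Benjamini-Hochberg adjusted p under 0.05, which held for 83 of all 21132 genes tested.

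None of the 10 genes was called, against 0.393% of all genes tested, and DESeq2's Wald test called 0 as well. At an unadjusted p under 0.05 there was 1, Syce1, which was lower in the libraries labelled Ythdf2-vKO, as were 6.47% of all genes at that level. Log2 fold changes were negative for 7 of the 10, against 49.7% of all genes tested, and ran from -0.33 for Syce1 to 0.13 for Rec8. Their median was -0.10, against 0.00265 over all genes tested. The groups did not overlap in 4 of the 10 (Sycp2, Sycp3, Syce1 and Smc1b), each lower in the libraries labelled Ythdf2-vKO, against 45.3% of all genes without overlap in either direction and 22.6% in that direction. Together the 10 genes had 2134 and 2227 CPM in the controls against 1927 and 1902 CPM in the libraries labelled Ythdf2-vKO. Such a sum weighs each gene by its level, which ran from 2.18 CPM for Rad21l to 483 CPM for Stag3 in control replicate 1. In bulk RNA, fewer cells of a type and less RNA per cell cannot be told apart.

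**Figure D1:**
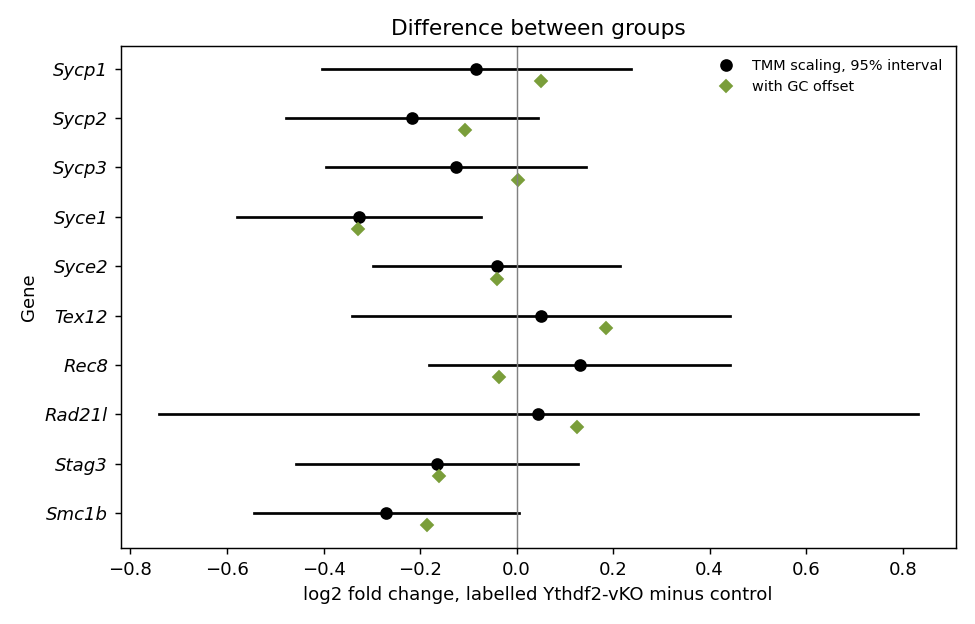
Log2 fold change of each gene (libraries labelled Ythdf2-vKO minus control, horizontal axis) with its 95% interval from edgeR (black), and the estimate with an offset for transcript GC content (green diamonds). The interval of Syce1 lies below 0 before adjustment, the other 9 include 0, and the green estimates of Sycp1, Sycp3 and Rec8 fall on the other side of 0 from the black ones.

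The transverse filament gene Sycp1 (ENSMUSG00000027855, protein-coding, chromosome 3, 102818499 to 102936100, minus strand, GRCm38) had 172 and 237 CPM in the controls against 195 and 192 CPM in the libraries labelled Ythdf2-vKO. Both of the latter lay between the control libraries, which stood further apart than the groups did. The log2 fold change was -0.08 (SE 0.15), with a 95% interval from -0.40 to 0.24. The processed pseudogene Sycp1-ps1 is 92.4% identical to the longest Sycp1 transcript over 2560 nt, and it held between 118 and 160 counts in a library, against 4030 to 7108 for Sycp1.

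Of the lateral element genes, Sycp2 (ENSMUSG00000060445, chromosome 2, 178345293 to 178407685, minus strand) had 391 and 442 CPM in the controls against 370 and 347 CPM in the libraries labelled Ythdf2-vKO. Its groups did not overlap, yet the gap between them, 391 to 370 CPM, was narrower than the distance between the control libraries. The log2 fold change of Sycp2 was -0.22 (SE 0.12, 95% interval -0.48 to 0.04, edgeR adjusted p 0.454). Sycp3 (ENSMUSG00000020059, chromosome 10, 88459569 to 88473236, plus strand), whose protein bundles into the fibres seen by antibody staining of spermatocyte spreads, had 135 and 156 CPM in the controls against 134 and 132 CPM in the libraries labelled Ythdf2-vKO. Here 3 of the 4 libraries were nearly level and control replicate 2 stood above them. The log2 fold change of Sycp3 was -0.13 (SE 0.12, 95% interval -0.39 to 0.14). Sycp3 shares 660 of its 1264 exonic bases with Chpt1 on the opposite strand. The libraries were directional, but whether strand was used in counting is not given in the sources used here. How reads of that stretch were assigned, or whether they were counted, is therefore not known.

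Among the central element genes, Syce1 (ENSMUSG00000025480, chromosome 7, 140777229 to 140787852, minus strand) had 393 and 408 CPM in the controls against 308 and 331 CPM in the libraries labelled Ythdf2-vKO. The gap between its groups was wider than the distance within either group. Its log2 fold change was -0.33 (SE 0.12), with a 95% interval from -0.58 to -0.07. The unadjusted p was 0.0153 and the edgeR adjusted p 0.234, so Syce1 was not called. The authors' deposited table gave Syce1 a log2 fold change of -0.33 with an adjusted p of 0.253. The DESeq2 Wald test reported above repeats that comparison on the same counts and is not a separate result. Its log2 fold changes lay within 3.7e-08 of the deposited ones. Syce2 (ENSMUSG00000003824, chromosome 8, 84872111 to 84888221, plus strand) was the steadiest of the 10, with 150 and 142 CPM in the controls against 143 and 141 CPM in the other group. Its log2 fold change was -0.04 (SE 0.12), and the 95% interval of the ratio of groups ran from 0.814 to 1.16. Tex12 (ENSMUSG00000032065, chromosome 9, 50556819 to 50561325, minus strand), which encodes the partner that assembles with SYCE2 into fibres, was far less abundant, with 10.9 and 13.3 CPM in the controls against 13.6 and 11.6 CPM in the libraries labelled Ythdf2-vKO. Its groups interleaved, and its log2 fold change was 0.05 (SE 0.18, 95% interval -0.34 to 0.44).

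The kleisin genes showed the least similar patterns. Rec8 (ENSMUSG00000002324, chromosome 14, 55618037 to 55625395, plus strand), whose protein holds sister chromatids together until the second meiotic division, had 77.0 and 61.1 CPM in the controls against 70.8 and 80.2 CPM in the libraries labelled Ythdf2-vKO. Control replicate 2 was its lowest library, where it was the highest for Sycp1, Sycp2, Sycp3, Syce1 and Smc1b. The log2 fold change of Rec8 was 0.13 (SE 0.14, 95% interval -0.18 to 0.44). Rad21l (ENSMUSG00000074704, chromosome 2, 151645404 to 151668533, minus strand), the kleisin of early prophase, had only 51 and 75 counts in the controls against 88 and 42 in the libraries labelled Ythdf2-vKO, or 2.18, 2.50, 3.29 and 1.56 CPM. The highest and the lowest value came from the same group. Its log2 fold change of 0.04 (SE 0.36) had a 95% interval in which the ratio of groups ran from 0.598 to 1.78.

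Of the other cohesin subunits, Stag3 (ENSMUSG00000036928, chromosome 5, 138280240 to 138312393, plus strand), which is needed to stabilise meiotic cohesin, had 483 and 390 CPM in the controls against 417 and 361 CPM in the libraries labelled Ythdf2-vKO. Its groups overlapped and each group spread widely. The log2 fold change of Stag3 was -0.16 (SE 0.14, 95% interval -0.46 to 0.13). Its longest transcript shares a stretch of at most 116 nt, at 90% identity or more, with transcripts of 495 other genes. Smc1b (ENSMUSG00000022432, chromosome 15, 85064689 to 85131964, minus strand), the meiotic SMC subunit that protects axis length and telomeres, had 319 and 375 CPM in the controls against 273 and 303 CPM in the libraries labelled Ythdf2-vKO. The groups of Smc1b did not overlap, with a gap narrower than the distance within either group. Its log2 fold change was -0.27 (SE 0.13, 95% interval -0.54 to 0.0054), at an unadjusted p of 0.054 and an edgeR adjusted p of 0.365.

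Calls for Syce1 and Smc1b appeared when control replicate 1 was left out. Their log2 fold changes were then -0.36 and -0.39, with edgeR adjusted p of 0.0266 and 0.0152. That fit leaves a single control library, which is assumed to vary like the others, and it called 6.82% of all genes tested. Leaving out any other library gave no call among the 10 genes. The value of Stag3 was -0.0101 without control replicate 1 and -0.31 without control replicate 2, and those of Sycp3 were -0.23 and -0.0153. Apart from Rad21l, the 95% intervals of the 10 genes allowed ratios of the libraries labelled Ythdf2-vKO to control from 0.669 to 1.36.

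Levels were compared between genes as CPM per kilobase of the union of exons in GENCODE M21, over the 4 libraries. The order was headed by Syce1 at 247 ± 33.0 and Sycp3 at 110 ± 8.81 (SD, n = 4 libraries), and neither overlapped its neighbours. The length used for Sycp3 includes the 660 bases shared with Chpt1, whose reads may or may not have been counted. Smc1b (78.4 ± 10.6), Syce2 (73.2 ± 2.04), Stag3 (72.0 ± 9.08), Sycp2 (65.0 ± 6.81) and Sycp1 (56.0 ± 7.66) followed, and each of these overlapped the next in range. Rec8 lay below them at 24.6 ± 2.87, Tex12 at 12.2 ± 1.30 and Rad21l at 1.44 ± 0.434, again without overlap. By this level Syce1 stood at the 99.2nd percentile of the genes tested, Rec8 at the 86.4th, Tex12 at the 76.2nd and Rad21l at the 34.9th.

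**Figure D2:**
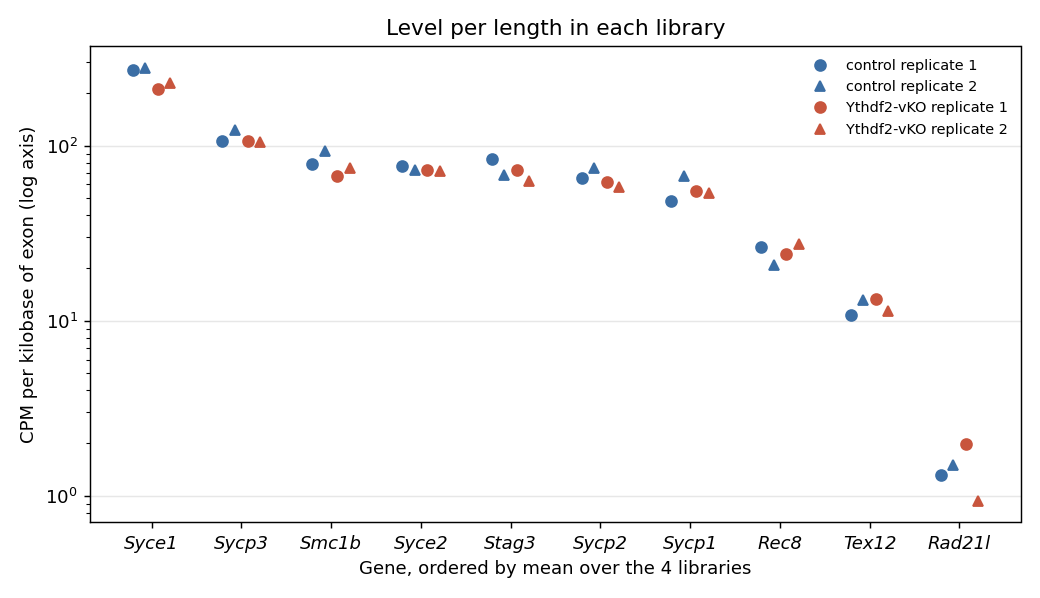
Level of each gene in each library as CPM per kilobase of exon (vertical log axis), ordered by the mean over 4 libraries, with circles for replicate 1 and triangles for replicate 2 and colours for the groups. Syce1 lies highest, from 211 to 279, 5 genes form a shelf between 48.5 and 92.7, and Rad21l spreads from 0.938 to 1.98 at the bottom.

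Ratios of subunits within a library do not depend on the scaling between libraries. Counts per kilobase of Rec8 were 19.9 and 13.8 times those of Rad21l in the controls. In the libraries labelled Ythdf2-vKO they were 12.2 and 29.1 times as high. Rec8 thus had more RNA per length than Rad21l in all 4 libraries, where Rad21l rests on 42 to 88 counts. Against the mitotic kleisin gene Rad21, which somatic and germ cells share, Rec8 stood at 1.15 and 0.782 in the controls against 0.801 and 1.08 in the other group. Averaged over the libraries the ratio of Rec8 to Rad21 was 0.954, and 1.199 when the longest transcript gave the length, so their order depends on the length used. With that length the mean ratio also moved from 8.51 to 6.45 for Stag3 to Stag1 plus Stag2, from 49.1 to 39.96 for Smc1b to Smc1a, from 3.36 to 2.88 for Syce1 to Syce2 and from 0.166 to 0.144 for Tex12 to Syce2. Rad21l reached between 0.0372 and 0.0658 of the level of Rad21. Stag3 was 10.1 and 7.45 times the sum of Stag1 and Stag2 in the controls against 8.86 and 7.60 times in the libraries labelled Ythdf2-vKO. In these ratios the groups overlapped.

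Smc1b stood at 60.7 and 47.8 times Smc1a in the controls against 42.1 and 45.9 times in the libraries labelled Ythdf2-vKO, without overlap, and control replicate 1 stood apart from the other three. Syce1 was 3.53 and 3.86 times Syce2 in the controls against 2.90 and 3.16 times in the libraries labelled Ythdf2-vKO, also without overlap. The lateral element ratio of Sycp2 to Sycp3 was 0.614 and 0.6004 in the controls against 0.583 and 0.556 in the libraries labelled Ythdf2-vKO, a small shift without overlap. Sycp1 to Sycp3 ranged from 0.454 to 0.540 and Tex12 to Syce2 from 0.141 to 0.184, with overlapping groups. The ratios to Sycp3 carry the limit of the stretch it shares with Chpt1.

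The difference between the control libraries was larger than that between the groups for 7 of the 10 genes, where the share over all genes tested was 54.7%. Control replicate 2 was the higher control library for 7 of the 10, against 50.5% of all genes. By gene, replicate 2 minus replicate 1 of the control group in log2 CPM was 0.46 for Sycp1, 0.29 for Tex12, 0.23 for Smc1b, 0.21 for Sycp3, 0.20 for Rad21l and 0.18 for Sycp2. These 6 genes have transcripts poor in GC, at 34.3% to 40.9%. The difference was 0.05 for Syce1, -0.08 for Syce2 and -0.31 for Stag3, at 49.1% to 49.5% GC, and -0.33 for Rec8 at 56.7%. Across the 10 genes, which share the same libraries, Pearson's r of this difference with GC content was -0.892, given as a description. For the same difference, the GC trend fitted over all genes gave smaller values, 0.168 for Sycp1 and -0.128 for Rec8. It gave 0.037 for Stag3 and 0.033 for Syce2, opposite in sign to the differences observed.

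With an offset for the GC trend of each library over all genes, the log2 fold change was 0.05 for Sycp1, 0.0037 for Sycp3 and -0.04 for Rec8, all of opposite sign to the values without it. That of Sycp2 was -0.11 with the offset, against -0.22 without it, and that of Tex12 was 0.18, against 0.05. That of Syce1 was -0.33 with and without the offset, that of Smc1b was -0.19 with it, and the median of the 10 genes was -0.04. The source of the GC trend was not tested. The median GC content of the 10 longest transcripts was 40.3%, against 48.9% over the genes tested.

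**Figure D3:**
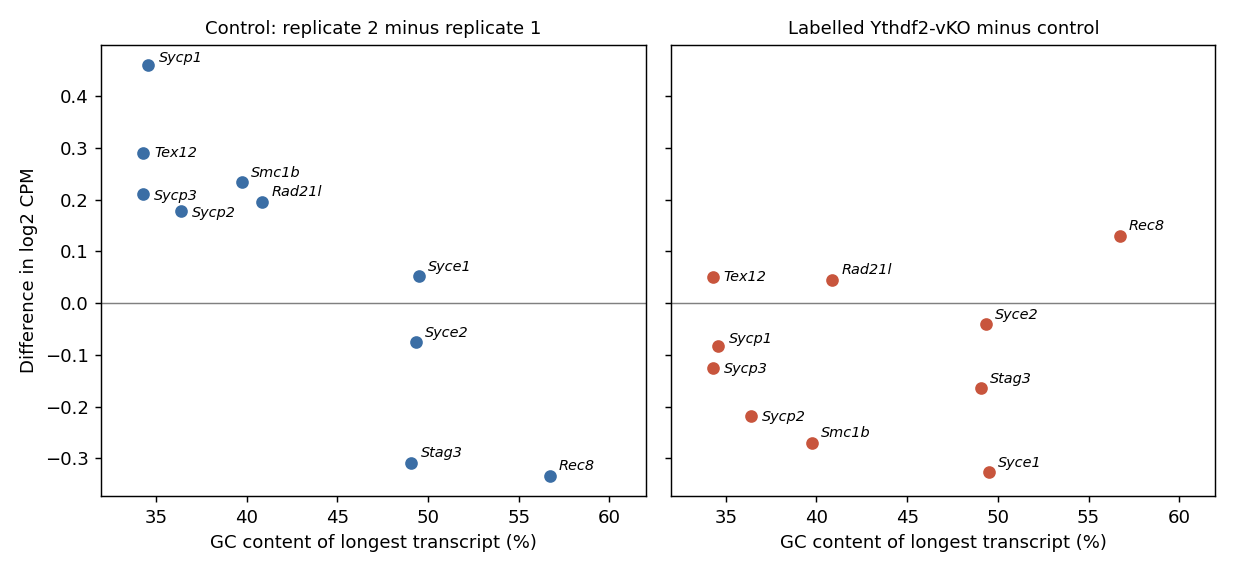
Difference in log2 CPM (vertical axis) against the GC content of the longest transcript (horizontal axis) for each gene, on the left between the control libraries and on the right the log2 fold change between groups. On the left the genes descend from Sycp1 at 0.46 to Rec8 at -0.33, and on the right no such slope is seen.

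Because YTHDF2 binds methylated RNA, the letters GGACT, the most frequent form of the N6-methyladenosine consensus, were counted in the longest transcript of each gene. The median was 0.808 matches per kilobase for the 10 genes and 1.02 for all genes tested. Sycp3 and Smc1b had no match, Sycp1 had 1, and Rad21l 1. Stag3 had the most matches, 7, and Tex12 (2.99) and Syce1 (2.05) had the most per kilobase. The matches are letters only, and no methylation was measured in these libraries.

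Genes that work with the scaffold were read from lists, and none of their genes was called in either direction. Over all genes tested, 49.7% had negative log2 fold changes and 6.47% were lower at an unadjusted p under 0.05, the background for the counts of each list. Of 11 other synaptonemal complex and axis genes, 7 had negative log2 fold changes, and 1 had an unadjusted p under 0.05. Their median was -0.15, and -0.0187 with the GC offset. That gene was Iho1, a partner of the axis needed for DNA breaks, with 25.0 and 20.9 CPM in the controls against 18.2 and 17.9 CPM in the libraries labelled Ythdf2-vKO (log2 fold change -0.35, SE 0.16, edgeR adjusted p 0.335). Next by p was Trip13, the remodeller that strips HORMA proteins from synapsed axes, with 10.95 and 14.0 against 16.4 and 16.0 CPM (0.37, SE 0.17, edgeR adjusted p 0.357).

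Of 7 genes that attach telomeres to the nuclear envelope, 6 were negative. Their median was -0.17, and -0.201 with the GC offset, and 2 had an unadjusted p under 0.05. These were Terb1, with 37.6 and 41.4 against 32.5 and 30.3 CPM (log2 fold change -0.33, SE 0.14, edgeR adjusted p 0.301), and Spdya, with 103 and 124 against 91.5 and 93.4 CPM (-0.29, SE 0.13, edgeR adjusted p 0.333). Without control replicate 1 Spdya was called, at -0.43 and an edgeR adjusted p of 0.0207, as were 6.82% of all genes. Of 14 genes for cohesin loading, release and protection, 12 were negative, with a median of -0.15 and 3 at an unadjusted p under 0.05. Pttg1, the securin that restrains separase, had 64.7 and 65.8 against 52.3 and 51.4 CPM (-0.33, SE 0.13, edgeR adjusted p 0.258). Nipbl, the cohesin loader, had 516 and 447 against 400.2 and 371 CPM (-0.32, SE 0.12, edgeR adjusted p 0.262). Without control replicate 2 Nipbl was called, at -0.42 and an edgeR adjusted p of 0.00727, as were 4.93% of all genes. The highest value in that list, 1.24 for Hdac8, is named because it stands out and rests on 1 and 11 against 14 and 14 counts.

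The 5 subunits of mitotic cohesin had a median of -0.06, or 0.0116 with the GC offset, with 0 at an unadjusted p under 0.05. Smc3, shared by the mitotic and the meiotic ring, had 108 and 111 against 96.5 and 99.8 CPM (log2 fold change -0.15, SE 0.12, edgeR adjusted p 0.623), and Rad21 had 96.3 and 113 against 127 and 107 CPM (0.16, SE 0.14, edgeR adjusted p 0.65). Of 9 transcriptional regulators of meiotic genes, 5 were positive, with a median of 0.0056, or -0.0521 with the GC offset, and 2 reached an unadjusted p under 0.05, where 7.65% of all genes did so in the higher direction. Both encode DNA-binding proteins of meiotic gene control: Max, with 13.6 and 14.0 against 19.2 and 16.8 CPM (0.38, SE 0.16, edgeR adjusted p 0.302), and Meiosin, an activator of meiotic entry, with 13.9 and 11.6 against 22.2 and 14.1 CPM (0.51, SE 0.21, edgeR adjusted p 0.311). The value of Meiosin was 0.14 without Ythdf2-vKO replicate 1 and 0.79 without Ythdf2-vKO replicate 2, and without control replicate 1 it was called, at 0.63 and an edgeR adjusted p of 0.0285. The mean deviation of the 10 scaffold genes was small in log2 CPM, from -0.114 in Ythdf2-vKO replicate 2 to 0.098 in control replicate 2. Genes that varied little therefore lay near it. Rad21l, at 42 to 88 counts, deviated by 0.512 and -0.557 in Ythdf2-vKO replicates 1 and 2. It was weighted like the other genes in that mean, and a mean without it was not computed. Over the 4 libraries, the nearest genes of these lists were Stag1, Pds5a and Mga, with log2 fold changes of -0.06, -0.11 and -0.12. Their root mean square distances from that mean deviation were 0.031, 0.044 and 0.052 in log2 CPM. Among the 10 genes themselves this distance ran from 0.056 for Sycp3 to 0.338 for Rad21l.

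**Figure D4:**
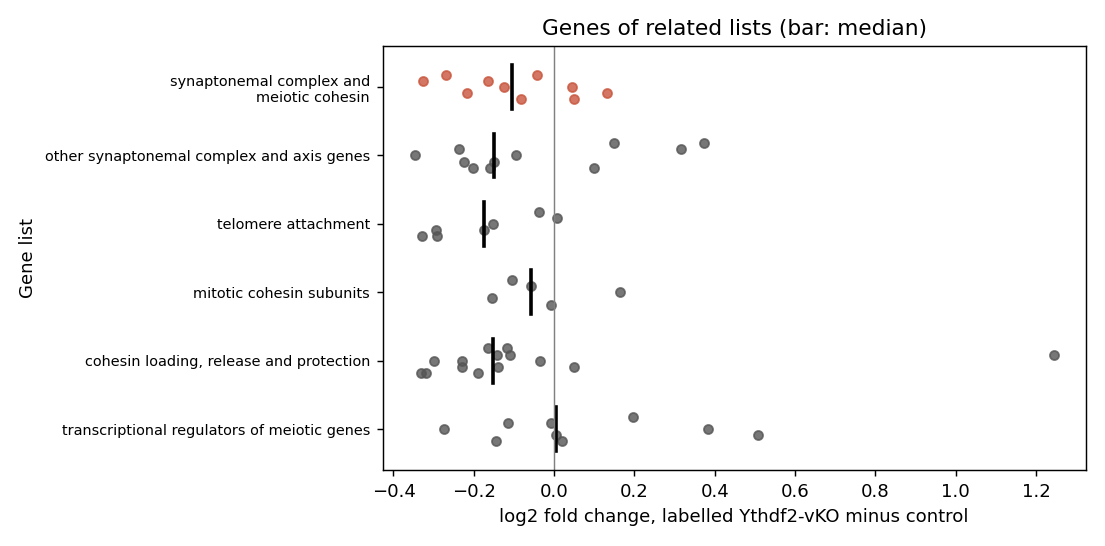
Log2 fold change of each gene (libraries labelled Ythdf2-vKO minus control, horizontal axis) in the scaffold list (red) and in 5 related lists (grey), with the median as a black bar. The medians run from -0.17 to 0.0056, and the single point at 1.24 is Hdac8.

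Marker lists of cell types, spermatocytes among them, differed in their medians. The median log2 fold change was -0.18 for 8 early prophase and -0.15 for 8 late prophase spermatocyte genes, 0.25 for 10 spermatogonial genes, 0.06 for 9 round spermatid genes and -0.25 for 9 elongating spermatid genes. It was 0.46 for 10 Sertoli cell genes, 0.36 for 7 Leydig cell genes, 0.40 for 6 endothelial genes and 0.76 for 4 erythrocyte genes, and -0.05 and 0.04 for 5 myoid and 6 macrophage genes. Control replicate 2 minus control replicate 1 had medians of 0.04 (early prophase), -0.23 (late prophase), -0.16 (spermatogonia), 0.09 (round spermatids) and -0.26 (elongating spermatids). For the somatic lists this median was 0.06 (Sertoli), 0.23 (Leydig), 0.07 (endothelial), 0.15 (erythrocytes), 0.81 (myoid) and 0.95 (macrophages). Over all genes tested, 50.3% had positive log2 fold changes, 49.7% had negative ones and 0.279% were called higher. All 10 spermatogonial and all 4 erythrocyte genes were positive, and 8 of the 9 elongating spermatid genes were negative. All 10 Sertoli genes were also positive, and 1 of them was called higher. Their summed levels were 1039 and 1090 CPM in the controls against 1484 and 1304 CPM in the libraries labelled Ythdf2-vKO. The single epididymis gene tested had a log2 fold change of -0.48. Their part in the values of the 10 scaffold genes was not tested.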

How the data were processed

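The authors deposited 1 table of raw read counts per gene and library, with a mean normalized count (a signal, counts divided by size factors), the log2 fold change and standard error of their comparison, a Wald-type score, and p-values, per the file headers. HISAT2 2.1.0 and HTSeq 0.6.1p1 are named in the submitters' processing notes; the build and the use of strand are not given in the sources used here. Genes were joined by identifier to GENCODE M21 (GRCm38). Every gene has at least 10 counts over the 4 libraries.

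Counts were tested with edgeR 4.0.16 (limma 3.58.1, R 4.3.3): TMM, filterByExpr, genotype as the single term of a robust quasi-likelihood fit, and two-sided F tests adjusted by Benjamini-Hochberg over 21132 genes at 0.05. SE is the absolute log2 fold change over the square root of F. The prior count was 0.125. Alternatives included DESeq2 1.42.0, other scalings and filters, a GC offset and a replicate block. Replicates differed by more than sampling noise (chi-square per degree of freedom 21.2 and 8.41). Members and lists were chosen with earlier results of these data known. Named genes are all 10 members, the 2 genes of smallest p in each related list (none was called), and the 3 nearest in pattern. On simulated libraries of this design, edgeR recovered 0 of 50 genes changed 1.2-fold, 24 of 50 at 1.5-fold and 50 of 50 at 2-fold, among genes above 16 CPM.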

Additional observations from a re-analysis of the deposited data

How the results depend on the processing

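None of the 10 genes was called under the other scalings, filters, prior count, tests, the GC offset or the replicate block, where adjusted p values were at least 0.0918. Leaving out each library gave 0 to 2 calls among them, the 2 being Syce1 and Smc1b without control replicate 1. Their median log2 fold change stayed negative in every alternative, between -0.166 and -0.0382. Library totals alone moved the median of all genes to 0.0674, Syce2 to 0.0254, Stag1 to 0.0058 and the telomere list to -0.111. The GC offset gave 0.0502 for Sycp1, 0.0037 for Sycp3, -0.0366 for Rec8, 0.0116 for Stag1 and -0.0187 for the other synaptonemal complex list. In the same order, the GC offset combined with the replicate block gave 0.0567, 0.0029, -0.0372, 0.00925 and -0.0111.

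Leaving out each library moved the log2 fold change between -0.302 and 0.166 for Sycp1, -0.0922 and 0.206 for Tex12, -0.0263 and 0.299 for Rec8, -0.59 and 0.484 for Rad21l, -0.383 and -0.274 for Syce1, -0.388 and -0.147 for Smc1b, -0.311 and -0.1251 for Sycp2, -0.234 and -0.0153 for Sycp3, -0.0781 and -0.01 for Syce2, -0.31 and -0.0101 for Stag3, 0.145 and 0.795 for Meiosin, -0.131 and 0.0157 for Stag1 and -0.237 and 0.0068 for Pds5a. List medians moved between -0.225 and -0.0487 (other synaptonemal complex genes), -0.278 and -0.155 (telomere attachment), -0.174 and 0.0157 (mitotic cohesin), -0.26 and -0.0548 (cohesin loading, release and protection) and -0.158 and 0.18 (transcriptional regulators). Calls in the telomere, loading and regulator lists ran from 0 to 1. The causes were not tested.

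Both groups carry replicate numbers 1 and 2, whose meaning the labels leave unsaid. Between same-numbered libraries the deviations correlated at 0.102, from 2 pairs, too few to show whether the numbers mark pairs. The main fit left them out because their meaning is not stated. With the replicate block 1017 genes were called, against 83 without it, and 0 of the 10 genes, and Rad21l was at -0.0296. Genes called over the whole table numbered 145 with the GC offset, 538 with the offset and the block, 218 with library totals alone, 217 with DESeq2, and 35 to 1512 when a library was left out. Rad21l, at 42 to 88 counts, and Tex12, at 255 to 400, had the fewest counts of the 10, and the part of depth in their intervals was not tested. On simulated libraries 0 of 50 changes of 1.2-fold were recovered among genes above 16 CPM. Rad21l and Tex12 lie below that level, so the simulation does not cover them, and it held no GC trend between libraries.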
